A study of Homo sapiens with 34 samples.

Results

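RNA sequencing values of 10 genes were examined across 34 established human B-cell lymphoma cell lines, of 31975 genes in the deposited table. The genes were chosen by name: the transcription factor genes MYC, MYCN and MYCL, their shared partner MAX, the MAX-binding repressors MXI1, MXD3, MXD4 and MNT, and PVT1 and CASC11, which are long non-coding RNA genes beside MYC on chromosome 8. The lines comprised 11 of mantle cell lymphoma (MCL), 3 of Burkitt lymphoma (BL), and of diffuse large B-cell lymphoma (DLBCL) 6 of the activated subtype (ABC DLBCL) and 14 of the germinal centre subtype (GCB DLBCL). No treatment or genetic change was labelled, and each line was sequenced once, so the lines were the replicates and a p-value measures the spread between lines, not between cultures. Cell lines are clonal cultures grown outside the patient, so they model the tumour cell without its surroundings. The series was collected around CXCR4 as a target of imaging and therapy in MCL.

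MYC binds DNA as a pair with MAX at E-box sequences and raises transcription of genes for ribosomes, metabolism and cell growth. The proteins encoded by MXI1, MXD3, MXD4 and MNT pair with the same MAX and repress transcription at such sites, so MAX is the hub of the network. In B cells MYC is switched on briefly in the germinal centre, and BL is known for translocations that join MYC to an immunoglobulin locus. MYCN and MYCL are best known from neural and lung tumours. PVT1 and CASC11 are long non-coding RNAs whose loci flank MYC.

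Values were variance-stabilised read counts on a log2 scale, on which 0 reads stood at 4.55 throughout. Whole reads could be recovered from them, with totals of 60083754 to 108776337 in MCL, 22574732 to 92411685 in BL, 22703365 to 164896293 in ABC DLBCL and 2547498 to 108166412 in GCB DLBCL. The libraries fell into 2 classes by their values, and 9 libraries without a read of ZNF593 or EMC6 are called class 2 here. They comprised the ABC DLBCL line NU-DUL-1 and 8 GCB DLBCL lines, which were also the 8 shallow libraries with at most 4842336 reads. Class 1 held the other 25 libraries, including every MCL and BL line. Library class and GCB DLBCL were therefore partly confounded. The labels marked 30 libraries as re-analysed, and the 4 others were the MCL lines HBL-2, MAVER-1 and UPN1 and the BL line Daudi. The B cell markers CD79A, CD79B, MS4A1, PAX5 and CD22 were read in every line, with at least 169 reads each.

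Differences between pathologies were tested with limma on all 34 lines and 22167 genes, with p-values adjusted over all genes and a threshold of 0.05. All 10 genes passed the filter on low values, which asked for at least 3 lines more than 1 log2 unit above the value of 0 reads. For MCL against the mean of the other 3 pathologies, 1 of the 10 genes was called, MYCN, where 4.46% of all genes were called. For BL against the mean of the other 3, 1 of the 10 was called, CASC11, where 0.162% of all genes were called. Any difference among the 4 pathologies was called for those 2 genes, where 13.2% of all genes were called. For ABC DLBCL against GCB DLBCL none of the 10 was called by limma, where 0.726% of all genes were called. None of the 10 had an unadjusted p under 0.05 there or was called by limma-voom on the recovered reads.

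**Figure D1:**
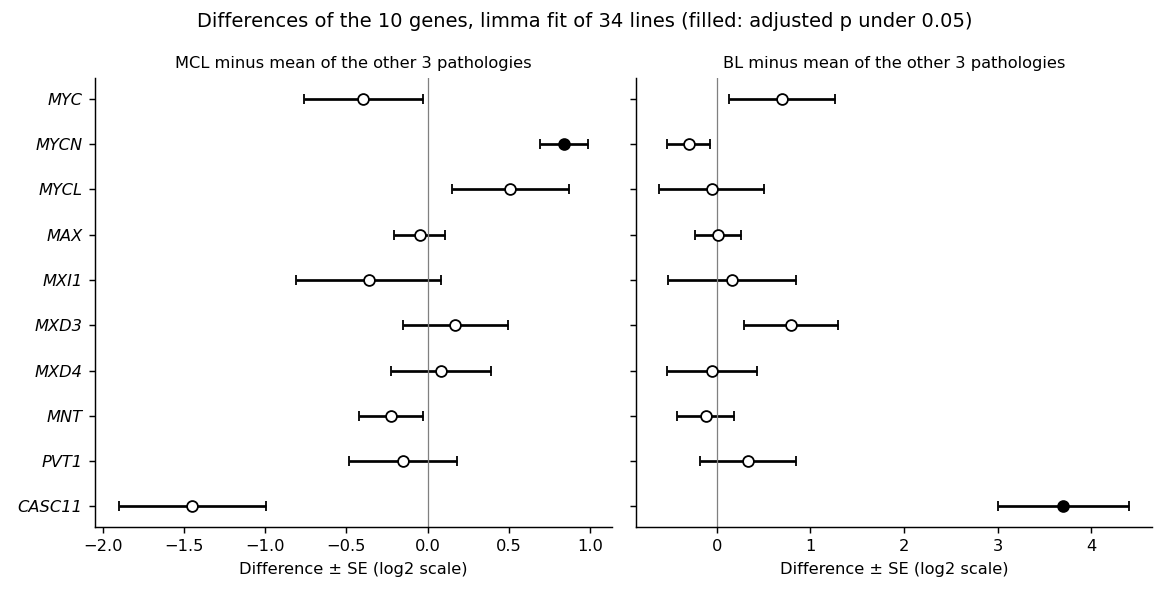
Difference of each of the 10 genes on the log2 scale (points, bars are ± SE), for MCL minus the mean of the other pathologies (left) and BL minus the mean of the other pathologies (right), filled where the adjusted p was under 0.05. MYCN is filled on the left at 0.84 and CASC11 on the right at 3.70, and the intervals of ± 1 SE of MAX and PVT1 span 0 in both panels.

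MYC was read in every line, from 661 reads in the shallow library of SU-DHL-6 to 123502 reads in Z-138. In MCL its log2 value was lowest in UPN1 at 10.27, had a median of 13.57 and was highest in Z-138 at 15.48. In BL it was 13.83 in Daudi, 14.46 in Raji and 14.62 in Ramos. In ABC DLBCL it was 13.43 in NU-DUL-1 at the lowest and 14.58 in HBL-1 at the highest, with a median of 14.02. In GCB DLBCL it was 12.20 in HT at the lowest and 14.18 in SU-DHL-4 at the highest, with a median of 13.47. The groups overlapped, and MCL held both ends of the range: Z-138, Jeko-1 and Mino lay above every line of the other pathologies, and UPN1 and GRANTA519 lay below them all.

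The mean MYC value and its SD were 13.48 ± 1.46 in 11 MCL lines, 14.30 ± 0.42 in 3 BL lines, 14.003 ± 0.459 in 6 ABC DLBCL lines and 13.32 ± 0.64 in 14 GCB DLBCL lines. MCL minus the mean of the others was -0.40 ± 0.37 (SE, limma adjusted p = 0.58), and BL minus the mean of the others was 0.70 ± 0.57 (SE, limma adjusted p = 0.79). The moderated F statistic over the 4 pathologies was 1.41 (limma adjusted p = 0.42). The order of the means was BL, ABC DLBCL, MCL and GCB DLBCL, and no neighbours in that order, nor any other pair, differed past the threshold. BL minus ABC DLBCL was 0.30 ± 0.66, MCL minus ABC DLBCL was -0.52 ± 0.47, and MCL minus GCB DLBCL was 0.16 ± 0.37 (SE, limma). The last of these turned to -0.059 after quantile normalisation. It was also below 0 without Jeko-1 (-0.0074) or Z-138 (-0.043). In a bulk library, fewer cells with a transcript and less of it in each cell cannot be told apart.

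**Figure D2:**
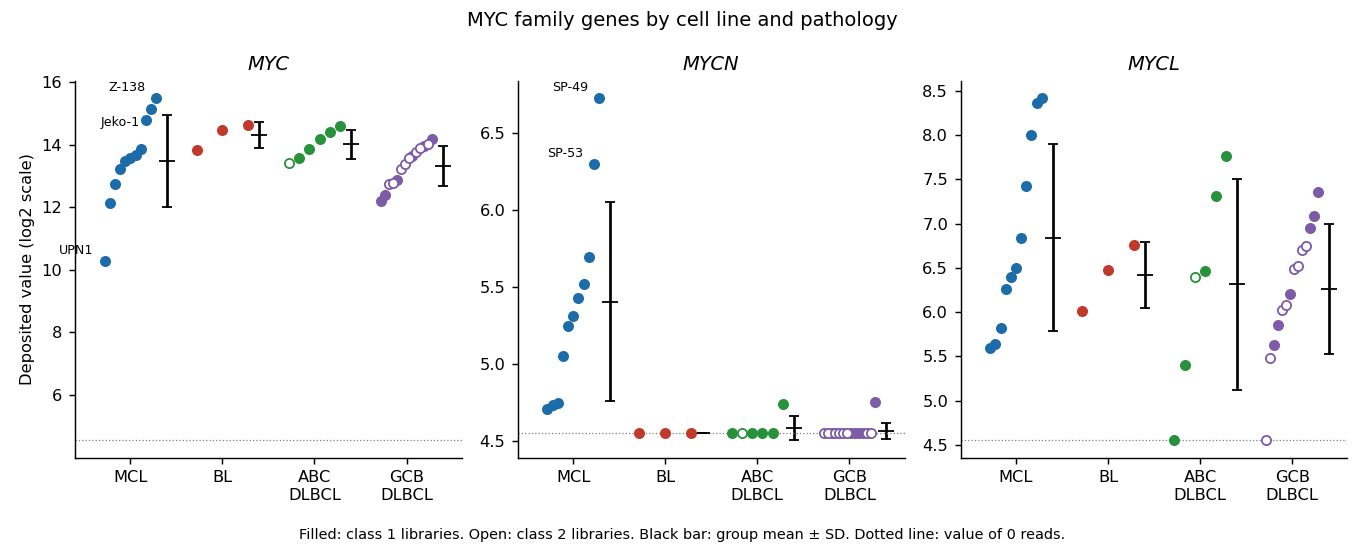
Deposited log2 value of MYC, MYCN and MYCL in each of the 34 lines by pathology (points, filled for class 1 libraries and open for class 2), with the mean ± SD of each group and a dotted line at the value of 0 reads; the vertical scales differ. MYC overlaps between all groups with MCL from 10.27 to 15.48, MYCN lies above the dotted line in all 11 MCL lines and in 2 others, and MYCL spreads from 4.55 to 8.41.

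MYCN, the family member best known from neuroblastoma, was read at low levels and mostly in MCL. Reads of it were found in 11 of 11 MCL lines and in 2 of the 23 others. The MCL lines had 194 reads in SP-49, 86 in SP-53, 35 in Mino, 19 in GRANTA519, 18 in Z-138, 12 in Jeko-1, 6 each in JVM2 and REC-1, and 1 each in UPN1, MAVER-1 and HBL-2. All 3 BL lines had 0 reads. HBL-1 was the only ABC DLBCL line with a read and Pfeiffer the only GCB DLBCL line with one, at 1 read each. Thus 8 MCL lines lay above every other line, and the 3 MCL lines with 1 read overlapped with HBL-1 and Pfeiffer. Those 3 were also the MCL lines not marked as re-analysed, and in the 30 re-analysed lines MCL minus the others was 1.09 (limma adjusted p = 3.2e-05).

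These levels were low. The highest was 1.78 counts per 1000000 reads of the library (CPM) in SP-49, with an exact 95% binomial interval of 1.54 to 2.05. That interval is for counting error only. The median of MCL was 0.166 CPM in Z-138. On the log2 scale MYCN had a mean and SD of 5.41 ± 0.65 in 11 MCL lines, was 4.55 in each of the 3 BL lines, and had 4.58 ± 0.08 in 6 ABC DLBCL lines and 4.57 ± 0.05 in 14 GCB DLBCL lines. MCL minus the mean of the others was 0.84 ± 0.15 (SE, limma adjusted p = 0.00058). MCL minus GCB DLBCL was 0.84 ± 0.15 (SE, limma adjusted p = 0.00052), in a contrast with 23.7% of all genes called. MCL minus ABC DLBCL was 0.82 ± 0.19 (SE, limma adjusted p = 0.033), with 0.69% of all genes called. MCL minus BL was 0.86 ± 0.25 and did not pass (SE, limma adjusted p = 0.083), with 1.17% of all genes called. The transform compresses values near 0 reads, and with limma-voom on the recovered reads MCL minus the others was 3.42 (limma-voom adjusted p = 0.012). There MCL minus GCB DLBCL was 2.37 and did not pass (limma-voom adjusted p = 0.056).

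MYCN passed the filter on low values only through SP-49, SP-53 and Mino, the 3 lines more than 1 log2 unit above the value of 0 reads. Without any of these it was no longer tested. With no filter, over all 31975 genes, MCL minus the others was again 0.84 (limma adjusted p = 0.00054). In the 8 shallow GCB DLBCL libraries, 3 reads corresponded to 0.620 to 1.18 CPM, above the level of 9 of the 11 MCL lines, so MYCN at most MCL levels was not detectable there. In class 1 libraries that limit was 0.0182 to 0.133 CPM in the lines other than MCL. Within class 1 alone MCL minus the others was 0.83 (limma adjusted p = 0.0087), MCL minus GCB DLBCL was 0.82 (limma adjusted p = 0.043) and MCL minus ABC DLBCL was 0.82 (limma adjusted p = 0.10). The call against ABC DLBCL was also lost after median-centring (0.61, limma adjusted p = 0.14). MYCN overlaps the antisense gene MYCNOS in RefSeq, and whether reads were counted by strand is not given in the sources used here, so reads of the 2 genes cannot be told apart.

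The bases before the MYCN start are shown because MYCN was the one family member called between pathologies. MYCN lies at chr2:15940550-15947004 and the window at chr2:15940300-15940549 on the plus strand (RefSeq, GRCh38.p14, 250 bases before the start, 5′ to 3′). The 3 E2F-type forms TTTGGCGC, TTTCGCGC and TTTCCCGC were searched on both strands, and capitals mark the matches.
MYCN: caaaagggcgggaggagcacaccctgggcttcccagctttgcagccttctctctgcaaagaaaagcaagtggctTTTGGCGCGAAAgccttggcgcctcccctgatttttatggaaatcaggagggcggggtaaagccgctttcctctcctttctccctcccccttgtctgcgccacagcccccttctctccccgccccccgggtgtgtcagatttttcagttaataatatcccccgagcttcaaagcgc
TTTGGCGC began 176 bases before the start, and the reverse complement of TTTCGCGC, GCGCGAAA, began 172 bases before it, so the 2 matches overlapped by 4 bases. Such a form stood in 2.32% of 35116 promoter windows of that length. E2F factors drive genes of the cell cycle; the match is only of letters.

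MYCL, the family member first known from lung cancer, was read in 32 of the 34 lines at low levels. In MCL its log2 value was 5.60 in UPN1 at the lowest and 8.41 in Z-138 at the highest (30 and 800 reads), with a median of 6.50. In BL it was 6.02 in Ramos, 6.48 in Daudi and 6.76 in Raji. It was 4.55 in SU-DHL-8 to 7.77 in OCI-Ly3 in ABC DLBCL, with a median of 6.43, and 4.55 in NU-DHL-1 to 7.35 in SU-DHL-4 in GCB DLBCL, with a median of 6.34. Z-138, GRANTA519 and SP-49 lay above every line of the other pathologies, and the groups otherwise overlapped. MCL minus the others was 0.51 ± 0.36 (SE, limma adjusted p = 0.48). Z-138 thus held the highest value of MYC and of MYCL among all lines, while GRANTA519 had the second highest MYCL and the second lowest MYC.

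The SD of MAX over the 34 lines was 0.35 log2 units, and 1.76% of all genes tested had a smaller one. Over the 25 class 1 lines the SD was again 0.35, and 20.2% of all genes had a smaller one. In MCL its value was 10.47 in UPN1 at the lowest and 11.82 in Jeko-1 at the highest, and UPN1 and Jeko-1 also had the lowest and the second highest MYC. In BL it was 10.96 in Raji, 10.999 in Ramos and 11.36 in Daudi. It was 10.64 to 11.64 in ABC DLBCL and 10.47 to 11.67 in GCB DLBCL, so all groups overlapped. MCL minus the others was -0.05 ± 0.16 (SE, limma adjusted p = 0.89). By comparison the SD of MYC over the same lines was 0.98, and 72.3% of all genes tested had a smaller one. Across the 25 class 1 lines MAX and MYC had a Spearman rho of 0.44 and a Pearson r of 0.46, which is a description over lines that share library preparation and scaling.

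Of the MAX-binding repressors, none of MXI1, MXD3, MXD4 and MNT was called in any of the 8 contrasts, and none had an unadjusted p under 0.05 there. MXI1, first described as a MAX interactor, had the widest spread, with an SD of 1.13 over the 34 lines. In MCL it was 6.88 in JVM2 at the lowest, with a median of 10.08, and 11.55 in Jeko-1 at the highest. In BL it was 9.64 in Daudi, 9.95 in Ramos and 10.60 in Raji. It was 7.99 in OCI-Ly3 to 12.53 in NU-DUL-1 in ABC DLBCL, and 8.58 in Karpas422 to 11.50 in DOHH-2 in GCB DLBCL. JVM2, with 81 reads, was the lowest of all lines, and REC-1 was the next lowest MCL line at 8.02. MCL minus the others was -0.36 ± 0.44 (SE, limma adjusted p = 0.68).

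MXD3, a member of the MXD family expressed in dividing cells, was 8.93 in JVM2 to 10.56 in REC-1 in MCL, with a median of 9.70. In BL it was 9.40 in Raji, 10.03 in Daudi and 11.09 in Ramos, the highest of all lines. It was 8.59 to 9.64 in ABC DLBCL and 6.96 to 10.93 in GCB DLBCL. The 2 lowest lines were NU-DHL-1 with 6 reads and Karpas422 with 14 reads, both of class 2. BL minus the others was 0.79 ± 0.50 (SE, limma adjusted p = 0.73).

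The SD over the 34 lines was 0.79 for MXD4 and 0.48 for MNT, against a median of 0.70 over all genes tested. MXD4, a MAX partner linked to differentiation, was 9.16 in HBL-2 to 11.12 in MAVER-1 in MCL, and 9.56 in Daudi, 10.13 in Raji and 10.38 in Ramos in BL. It was 8.40 in OCI-Ly3 to 10.73 in SU-DHL-8 in ABC DLBCL, and 7.99 in OCI-Ly7 (21 reads) to 11.77 in SU-DHL-4 in GCB DLBCL. MNT, a broadly expressed repressor that competes with MYC for MAX, was 9.15 in JVM2 to 10.98 in Z-138 in MCL, and 9.41 in Ramos, 9.64 in Raji and 10.94 in Daudi in BL. It was 9.44 in NU-DUL-1 to 11.08 in OCI-Ly10 in ABC DLBCL, and 9.55 in Toledo to 10.80 in SU-DHL-10 in GCB DLBCL. The groups overlapped for both genes. JVM2 was the lowest MCL line for MXI1, MXD3 and MNT. MCL minus the others was 0.08 ± 0.31 for MXD4 (SE, limma adjusted p = 0.91) and -0.22 ± 0.20 for MNT (SE, limma adjusted p = 0.57).

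**Figure D3:**
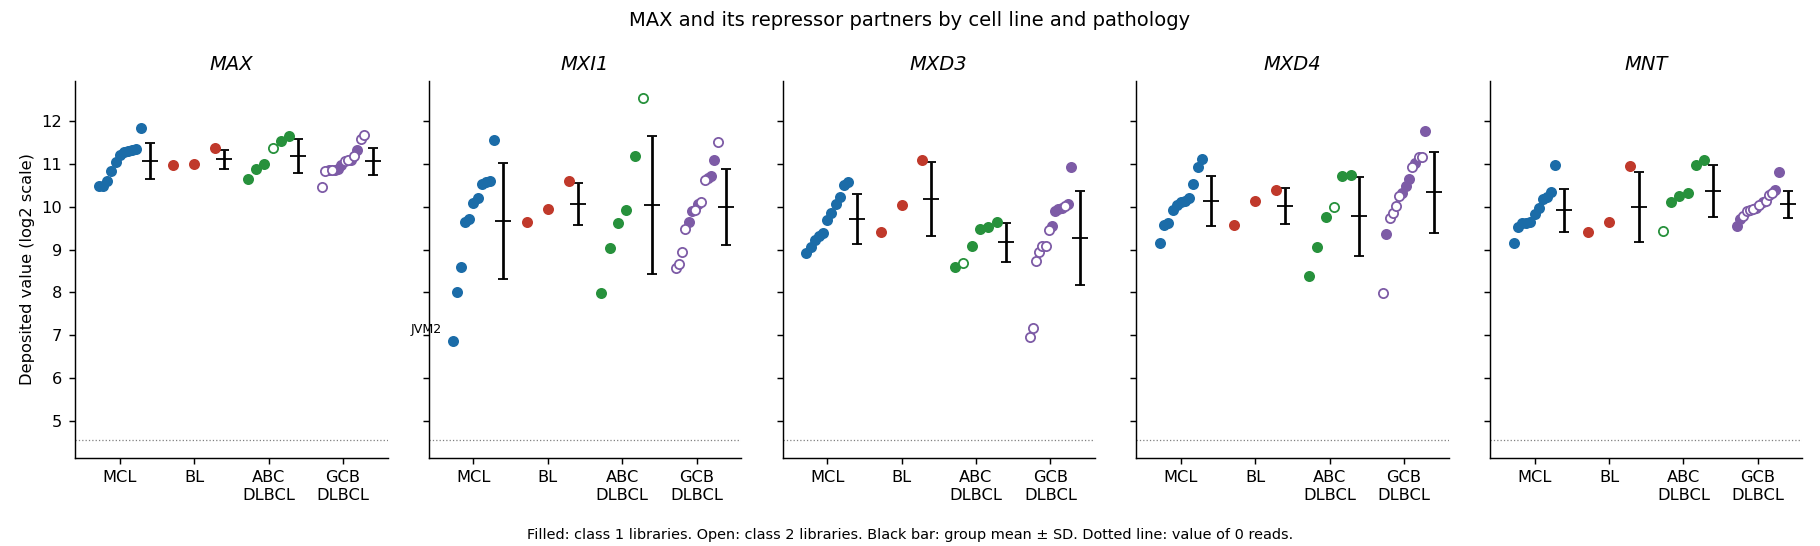
Deposited log2 value of MAX, MXI1, MXD3, MXD4 and MNT in each of the 34 lines by pathology on 1 shared vertical scale (points, filled for class 1 libraries and open for class 2), with the mean ± SD of each group. MAX stays between 10.47 and 11.82, MXI1 spreads from 6.88 in JVM2 to 12.53 in NU-DUL-1, and no gene separates the groups.

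The promoters of MXD4 and MNT are shown because they were the only ones with an E-box among the members that had a promoter entry. The E-box, CACGTG, is the sequence that pairs of MAX with MYC or with its repressors bind. Of the 10 genes, 7 had promoter entries, with 10 windows. MYC, PVT1 and CASC11 had none and were not searched. The MXD4 window lies at chr4:2262110-2262359 and the MNT window at chr17:2401061-2401310, both given on the minus strand of their genes (RefSeq, GRCh38.p14, 250 bases before the start, 5′ to 3′). Capitals mark CACGTG, which reads the same on both strands.
MXD4: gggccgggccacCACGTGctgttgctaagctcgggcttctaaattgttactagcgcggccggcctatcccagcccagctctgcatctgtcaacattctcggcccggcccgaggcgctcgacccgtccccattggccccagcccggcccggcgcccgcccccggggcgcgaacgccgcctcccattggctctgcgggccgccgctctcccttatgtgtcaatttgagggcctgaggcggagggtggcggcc
MNT: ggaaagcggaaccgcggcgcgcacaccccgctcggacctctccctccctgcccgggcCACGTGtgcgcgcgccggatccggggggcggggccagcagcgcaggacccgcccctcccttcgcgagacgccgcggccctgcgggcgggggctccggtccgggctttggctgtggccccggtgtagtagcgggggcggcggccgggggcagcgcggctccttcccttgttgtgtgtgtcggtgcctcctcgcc
The E-box began 238 bases before the MXD4 start and 193 bases before the MNT start, and 6.34% of the 35116 promoter windows held one. Across the 25 class 1 lines MYC had a Spearman rho of -0.01 with MXD4 and of 0.19 with MNT. With MXI1 it was 0.21 and with MXD3 0.18, and leaving out the 2 lines farthest from the MYC median gave 0.29 and 0.25.

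PVT1 and CASC11, the non-coding genes beside MYC, were read unequally. In RefSeq (GRCh38.p14) CASC11 lies at chr8:127700608-127733967 and ends 1.47 kb before MYC, which lies at chr8:127735434-127742951. PVT1 lies at chr8:127794524-128101256 and starts 51.6 kb after the end of MYC. PVT1 was read in every line, with at least 36 reads. In MCL its log2 value was 8.43 in HBL-2 at the lowest, had a median of 9.53 and was 12.02 in JVM2 at the highest. In BL it was 9.06 in Daudi, 10.57 in Ramos and 10.67 in Raji. It was 9.53 in NU-DUL-1 to 10.07 in HBL-1 in ABC DLBCL, with a median of 9.86, and 8.49 in OCI-Ly1 to 11.03 in DOHH-2 in GCB DLBCL, with a median of 9.89. JVM2 and Mino lay above every line of the other pathologies, and the groups overlapped.

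The mean and SD of PVT1 were 9.73 ± 1.10 in 11 MCL lines, 10.10 ± 0.90 in 3 BL lines, 9.81 ± 0.21 in 6 ABC DLBCL lines and 9.75 ± 0.81 in 14 GCB DLBCL lines. MCL minus the others was -0.15 ± 0.33 (SE, limma adjusted p = 0.83), and BL minus the others was 0.34 ± 0.52 (SE, limma adjusted p = 0.83). PVT1 did not follow MYC across lines. The Spearman rho of the 2 genes was 0.04 over the 25 class 1 lines, 0.06 over all 34 lines and -0.08 over the 11 MCL lines. The lines with the highest MYC, Z-138 and Jeko-1, had PVT1 values of 8.76 and 8.77, near the low end, while JVM2 had the highest PVT1 at a MYC value of 13.67. PVT1 minus MYC was lowest in Z-138 at -6.72 and highest in UPN1 at -1.20, a difference of log2 values within each line and not of molar levels.

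CASC11 was high in a few lines only. In BL it had 3874 reads in Raji and 3007 in Ramos, against 9 in Daudi. In MCL it had 0 reads in UPN1 at the lowest and 101 in Jeko-1 at the highest, and the next highest line, Z-138, had 29. In ABC DLBCL it had 444 reads in NU-DUL-1, while the other 5 lines had 3 to 22. In GCB DLBCL it had 96 reads in SU-DHL-10, and the other 13 lines had 0 to 24. Raji and Ramos thus lay above every other line, and Daudi lay within the range of the other pathologies. Daudi was the BL library with the fewest reads and the one not marked as re-analysed. The 30 re-analysed lines thus held only the 2 high BL lines, Raji and Ramos. Over those 30 lines BL minus the others was 5.46 (limma adjusted p = 5.1e-05). Scaled to depth, CASC11 was 41.9 CPM in Raji (exact 95% binomial interval 40.6 to 43.3) and 50.9 in Ramos (49.1 to 52.8). Against these it was 0.399 in Daudi (0.182 to 0.757), with intervals for counting error only. It was 19.6 CPM in NU-DUL-1, 1.68 in Jeko-1 and 0.976 in SU-DHL-10. NU-DUL-1 was a class 2 library, and the 8 others of that class had 0 to 3 reads, where 3 reads corresponded to 0.620 to 1.18 CPM.

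On the log2 scale BL minus the others was 3.70 ± 0.70 for CASC11 (SE, limma adjusted p = 0.012). MCL minus BL was -3.86 ± 0.75 (SE, limma adjusted p = 0.0059). BL minus GCB DLBCL was 3.86 ± 0.73 (SE, limma adjusted p = 0.015), in a contrast with 0.153% of all genes called. BL minus ABC DLBCL was 3.37 ± 0.82 and did not pass (SE, limma adjusted p = 0.083), with 0.117% of all genes called. MCL minus the others was -1.45 ± 0.45 (SE, limma adjusted p = 0.059). With limma-voom BL minus the others was 6.60 (limma-voom adjusted p = 0.00026). The BL calls rested on Raji and Ramos: BL minus the others was 2.84 without Raji (limma adjusted p = 0.24) and 2.75 without Ramos (limma adjusted p = 0.23), while the F statistic was 25.5 without Daudi, against 10.02 with it. Without the 8 shallow libraries, an alternative added after the data were seen, BL minus GCB DLBCL was 3.85 (limma adjusted p = 0.14).

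**Figure D4:**
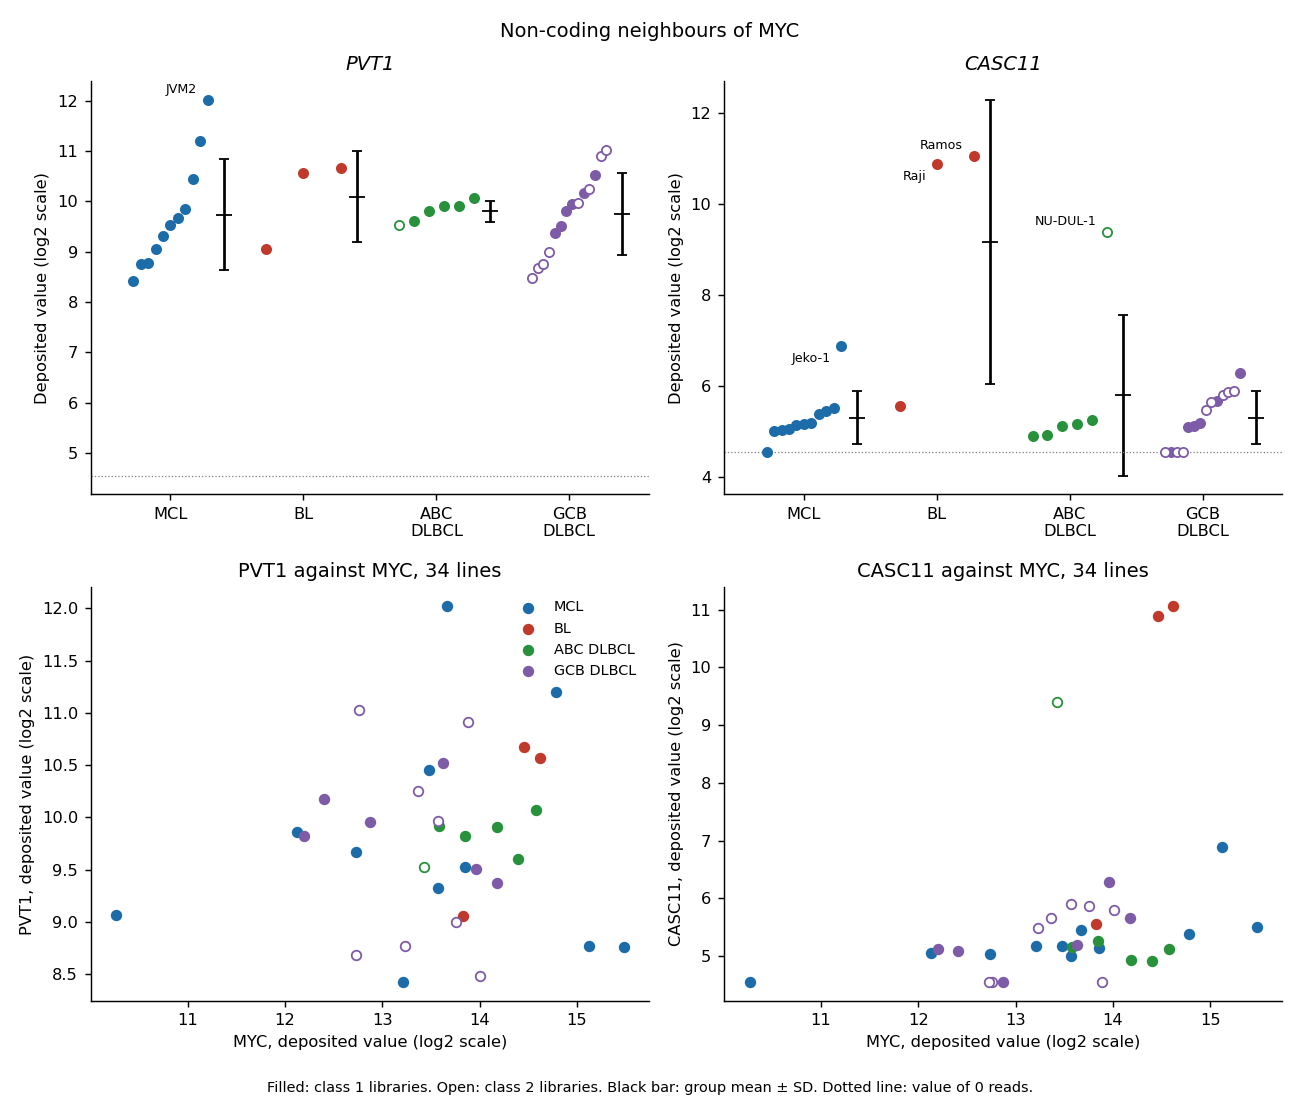
Top: deposited log2 value of PVT1 and CASC11 in each of the 34 lines by pathology, with the mean ± SD of each group and a dotted line at the value of 0 reads. Bottom: each gene against MYC, 1 point per line; points are filled for class 1 libraries and open for class 2. CASC11 stands high in Raji (10.89), Ramos (11.06) and NU-DUL-1 (9.39), and the PVT1 points show no slope with MYC (Spearman rho 0.06).

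CASC11 followed MYC in rank across lines, mostly at few reads. Their Spearman rho was 0.60 and Pearson r 0.39 over the 25 class 1 lines, and 0.80 and 0.71 over the 11 MCL lines, where all but Jeko-1 had under 30 reads of CASC11. Over all 34 lines rho was 0.48, and over the 14 class 1 lines of the other pathologies it was 0.42. Without the 2 lines farthest from the MYC median, rho was 0.54 over 23 class 1 lines and 0.65 over 9 MCL lines. For the class 1 lines of the other pathologies it fell to 0.36 over 12 lines. Between PVT1 and CASC11 it was 0.08 over the class 1 lines. These are descriptions over lines that share depth and scaling.

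Other genes near MYC were taken from a list of 26 names, of which 16 were in the table and 8 passed the filter. None of the 8 was called by limma for MCL or for BL against the others, 0 and 1 had an unadjusted p under 0.05, and none was called by limma-voom. FAM84B, a neighbour of MYC on the side of CASC11, had 1033 reads in Ramos, 47 in Raji and 0 in Daudi. It was read in 17 of the 34 lines, with up to 536 reads in MCL, 137 in ABC DLBCL and 1188 in GCB DLBCL. NSMCE2, TRIB1, SQLE, FAM49B and ASAP1 were read in every line. NSMCE2, a subunit of the SMC5/6 complex, was highest in JVM2 (11.54), the line with the highest PVT1. TMEM75 was read in all 9 class 2 libraries and in none of class 1, so its values followed the library class.

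The other genes of the network and of its known targets were taken from 7 more lists, and with the neighbours 115 genes were tested. For MCL against the others 4 of these were higher, where 3.6% of all genes were, and 2 were lower, where 0.862% of all genes were. Of 5 further network genes, ZBTB17, which encodes the MYC partner MIZ1, was higher (0.86, limma adjusted p = 0.028), although it lost the call after median-centring (0.59, limma adjusted p = 0.11) and within class 1 (0.77, limma adjusted p = 0.073). Of 10 genes that MYC is known to repress, 3 were higher in MCL, with a median over the list of 1.45, against -0.01 over all genes. These were CDKN1C, an inhibitor of cyclin-dependent kinases (3.95, limma adjusted p = 3.1e-07), NDRG2, a growth-restraining gene (2.33, limma adjusted p = 0.00054), and CEBPA, a factor of myeloid differentiation (2.04, limma adjusted p = 0.0099). Of 25 targets of metabolism and growth, SLC16A1, the lactate transporter MCT1, was lower (-0.85, limma adjusted p = 0.018), and the median was -0.01.

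None of 22 targets of ribosome biogenesis was called by limma for MCL against the others, none had an unadjusted p under 0.05 and none was called by limma-voom, with a median of 0.04. None of 14 cofactors such as TRRAP was called by limma or limma-voom, and 2 had an unadjusted p under 0.05. None of 11 turnover genes, such as the ubiquitin ligase gene FBXW7, was called by limma or limma-voom, and 1 had an unadjusted p under 0.05. Of 20 B-cell regulators of MYC transcription, BCL6, the germinal centre repressor, was lower in MCL (-4.33, limma adjusted p = 0.0022), with a median of -0.28 over the list. For BL against the others none of the 115 genes was called by limma, where 0.162% of all genes were called, and none by limma-voom. Of the 115 genes 13 had an unadjusted p under 0.05, and the share of all genes at that unadjusted level is not given here.

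The mean and SD of BCL6 were 8.01 ± 1.78 in 11 MCL lines, 13.39 ± 0.18 in 3 BL lines, 10.97 ± 2.36 in 6 ABC DLBCL lines and 12.65 ± 2.83 in 14 GCB DLBCL lines. Reads of CDKN1C numbered 47 to 15128 in MCL and at most 196 in any other line. CDKN1C was also higher in MCL in each pairwise contrast, and BCL6 lower than in GCB DLBCL (-4.64, limma adjusted p = 0.00081). Against GCB DLBCL, where 23.7% of all genes were called, 31 of the 115 genes were called in all 34 lines. Within class 1, where 3.41% of all genes were called, 6 of the listed genes were: CDKN1C, CDKN1A and the B-cell factor gene IRF4 were higher, and BCL6, MEF2B and SLC16A1 were lower. The chromatin cofactor BPTF was -1.34 in all lines and -1.11 within class 1 (limma adjusted p = 0.0028 and 0.076). EP300 was -0.93 in all lines and -0.43 within class 1 (limma adjusted p = 0.012 and 0.53). TRRAP was -1.07 in all lines and -0.18 within class 1 (limma adjusted p = 0.027 and 0.86). Markers of other cell types moved with MCL in part: of 3 tested fibroblast markers PDGFRB was higher (1.94, limma adjusted p = 0.0074), and of 3 tested epithelial markers KRT18 (1.57, limma adjusted p = 0.040). PDGFRB kept its call within class 1 (1.89, limma adjusted p = 0.0064). KRT18 lost it within class 1 (1.40, limma adjusted p = 0.15), after median-centring (1.31, limma adjusted p = 0.052) and with limma-voom (3.46, limma-voom adjusted p = 0.16). The summed fibroblast markers were 0.402 to 54.2 CPM in MCL, 0.0677 to 4.43 in BL, 0.230 to 46.4 in ABC DLBCL and 0 to 34.8 in GCB DLBCL. The summed epithelial markers were 0.331 to 32.6 CPM in MCL, 0 to 0.0433 in BL, 0.0548 to 73.8 in ABC DLBCL and 0 to 204 in GCB DLBCL. In MCL, COL3A1 was at 0 reads in 8 of 11 lines and COL1A2 in 6, while COL1A1 (18 to 5650 reads) and PDGFRB (5 to 1165 reads) were read in every line. None of 5 T cell markers and of 3 tested monocyte and macrophage markers was called by limma or limma-voom for MCL against the others. The summed T cell markers were 0.109 to 137 CPM in MCL, 5.53 to 45.6 in BL, 0.176 to 75.7 in ABC DLBCL and 1.08 to 705 in GCB DLBCL. The summed monocyte and macrophage markers were at most 5.92 CPM in any line. The part of such markers in the results was not tested.

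The genes whose values ranked most like MYC over the 25 class 1 lines were RPS15AP1, RPS7P11, DPH5, RPS7 and RPL11, with Spearman rho of 0.79, 0.78, 0.78, 0.78 and 0.76. RPS7 and RPL11 encode ribosomal proteins, DPH5 encodes an enzyme of diphthamide synthesis on a translation factor, and RPS15AP1 and RPS7P11 are ribosomal protein pseudogenes whose reads may be shared with their parent genes. Over all 34 lines the first were RPL22, DPH5, RPL35A, BZW2 and RPL34, with rho of 0.71 to 0.65. Ribosomal protein genes as a class, chosen after these values were seen, had a rho above 0 with MYC in 76 of 77 cases and a median of 0.61. Among all genes tested other than the 10 members 44.0% were above 0 and the median was -0.04. The median was 0.65 within the 11 MCL lines, 0.60 within the 14 class 1 lines of the other pathologies and 0.58 without GRANTA519 and UPN1, the 2 lines farthest from the MYC median. These genes vary together, so their count does not weigh as 77 observations.

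The target lists ranked less like MYC. Of the 22 ribosome biogenesis targets 14 had a rho above 0, with a median of 0.05, and NPM1, the nucleolar protein nucleophosmin, had the highest at 0.64. Of the 25 targets of metabolism and growth 19 had a rho above 0, with a median of 0.14, led by IMPDH2, an enzyme of guanine nucleotide synthesis (0.57), SHMT2, a mitochondrial enzyme of serine metabolism (0.46), and NME1, a nucleoside diphosphate kinase (0.43). Of the 20 B-cell regulators 4 had a rho above 0, with a median of -0.16. All of these are descriptions over 25 lines that share scaling, with no test.

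**Figure D5:**
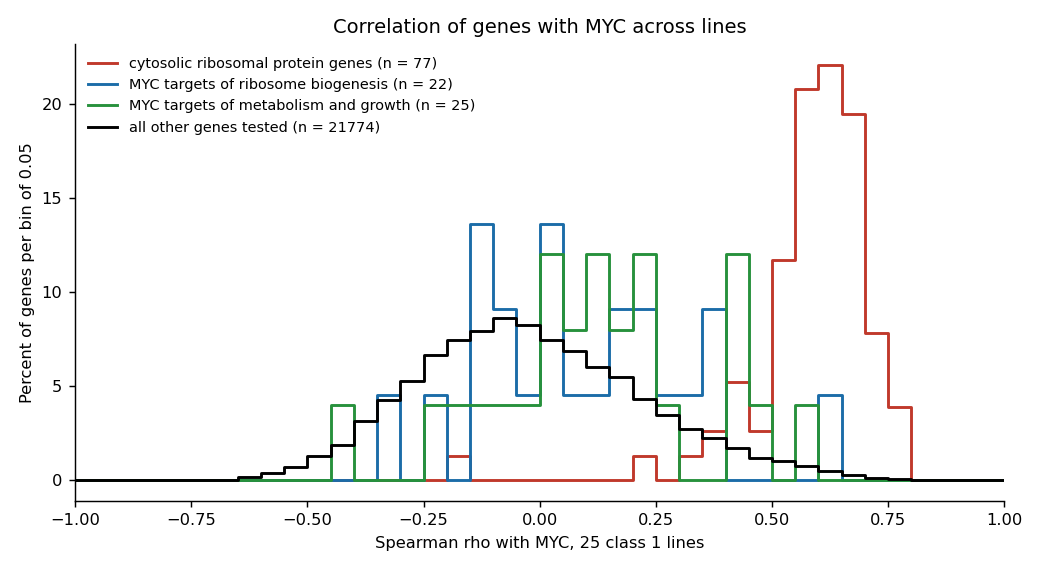
Share of genes, in percent per bin of 0.05, by their Spearman rho with MYC over the 25 class 1 lines, for 77 cytosolic ribosomal protein genes, 22 ribosome biogenesis targets, 25 metabolism and growth targets and all genes tested other than the 10 members (all other genes). The ribosomal protein genes lie mostly between 0.50 and 0.80, and the target lists lie nearer to all other genes, with a median of -0.04.

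MYCN ranked most like SOX11, a transcription factor gene typical of MCL, with a Spearman rho of 0.90, and like CD276, an immune checkpoint ligand, with 0.89, over 25 class 1 lines of which 12 were at 0 reads of MYCN. Like MYCN, both were higher in MCL. The mean of SOX11 was 10.35 in MCL and 4.95 to 5.19 in the other pathologies, and that of CD276 was 7.47 and 4.55 to 4.62. These rho values therefore span the difference between MCL and the other lines, and none within MCL is given here. MYCL ranked most like HLA-DPB2 (0.77), MXI1 like ANKZF1 (0.68), MXD3 like VPREB3 (0.74), MNT like PELP1 (0.77) and PVT1 like PGM1 (0.69). MAX ranked most like RP4-785G19.2 (0.67), MXD4 like RP11-12J10.4 (0.62) and CASC11 like AC010883.5 (0.76). Each was the highest among the correlations with all genes tested, so its height sets no level of its own.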

How the data were processed

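RNA-seq values of 34 cell lines, 1 library each, were grouped by labelled pathology. The authors deposited variance-stabilised read counts on a log2 scale for 31975 genes. Per the submitters' processing notes, the authors used STAR 2.5.3a, R 3.6.1, DESeq2 1.26.0 and build GRCh38, with no role given for each. The read counter, annotation, gene filter and strand setting are not given in the sources used here. Inverting the transform at its lowest value gave whole reads within 0.05 for all values, with totals of 2547498 to 164896293 per library. Rows without a gene name held at most 0.0228% of a library's reads.

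One mean per pathology was fitted with limma 3.58.1 (R 4.3.3, intensity trend) to 22167 genes, with Benjamini-Hochberg adjustment across every gene tested. The 8 contrasts were MCL and BL each against the unweighted mean of the other 3, and the 6 pairs, beside a moderated F test. Only the limma contrasts of MCL and of BL against the others were tested on simulated reads. Correlations used Python 3.11.15 and SciPy 1.17.1. Alternatives were other filters, centring, quantile normalisation, library class as a covariate, class 1 alone, re-analysed lines alone, limma-voom on recovered reads and leaving out each line. The named genes were the 10 members, list members past the threshold, the 5 genes most like MYC and the gene or 2 most like each other member. The members and lists were chosen with earlier results of these data known.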

Additional observations from a re-analysis of the deposited data

Results flagged for a closer look

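Chance alone flags about 1 group in 20 by the test of a line that stands far from its group, and 10 groups of 6 lines were looked at, 1 for each gene in ABC DLBCL. CASC11 in NU-DUL-1 was 9.39, against 4.91 to 5.26 in the other 5 ABC DLBCL lines, and was flagged because its gap to the next line was 0.922 of the range of the group. MYCN in HBL-1 was 4.75, the value of 1 read, and was flagged because the other 5 ABC DLBCL lines had 0 reads, so that the gap was the whole range. With 5 lines tied at 0 reads, any read in the other line gives that gap, so the rate of 1 in 20 does not apply to this flag.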

How the results depend on the processing

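For MCL against the others, 1 of the 10 genes was called. The count was 0 under the stricter filter, which MYCN did not pass, and 2 (with CASC11) after median-centring, after quantile normalisation and in re-analysed lines alone. It ranged from 0 to 2 when a line was left out, being 0 without Mino, SP-49 or SP-53, where MYCN was not tested, and 2 without Jeko-1 or Daudi. For MCL against GCB DLBCL the count was 0 under the stricter filter and with limma-voom, and 0 to 1 when a line was left out. For MCL against ABC DLBCL it was 0 under the stricter filter, after median-centring, in class 1 alone, with limma-voom and without the 8 shallow libraries, and 0 to 1 when a line was left out. Without Mino, SP-49 or SP-53 MYCN was not tested, and the call was lost in the test without any 1 ABC DLBCL line other than HBL-1. For BL against GCB DLBCL it was 0 without the 8 shallow libraries. For BL against the others, BL against GCB DLBCL and MCL against BL it was 0 to 1 when a line was left out, with 0 without Raji or Ramos. For BL against ABC DLBCL it was 1 (CASC11) in class 1 alone, in re-analysed lines alone and with limma-voom, and 0 to 1 when a line was left out, with 1 without Daudi or NU-DUL-1. For any difference it was 1 under the stricter filter and with limma-voom, and 1 to 2 when a line was left out. MYC in MCL minus GCB DLBCL reversed to -0.059 after quantile normalisation and ranged from -0.043 to 0.48 when a line was left out. The causes were not tested. No other difference of MYC among the 8 contrasts, and no called difference of MYCN or CASC11, changed direction under the alternatives in which it was tested. Median-centring moved the median of all genes for MCL against the others to -0.28, and 527 genes were then higher and 1097 lower, against 798 higher and 191 lower as deposited. No paired analysis was possible because each line had 1 pathology and 1 library. Depth limits MYCN, MYCL and CASC11, and MXD3 and MXD4 in some shallow libraries.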
